A study of Drosophila melanogaster with 34 samples.

Results

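Basal gene expression was compared between COR-018 and JUT-008, 2 copper-sensitive strains of *D. melanogaster*, in the libraries of flies that received no copper. The comparison uses 6 of the 34 RNA-seq libraries of the study, replicates 1, 2 and 4 of COR-018 and replicates 1, 2 and 3 of JUT-008, chosen by their strain and treatment labels. Each library was made from the whole bodies of 20 mated females, 3 to 7 days old per the labels, that had spent 24 h on sucrose solution with food dye and without CuSO4. Each strain descends from wild flies collected in Europe in 2015 and inbred for 20 generations, and stands for 1 inbred genotype rather than for sensitive flies in general. The study also has 6 libraries of the same strains after 24 h on 20 mM CuSO4 and 10 control libraries of the other 4 strains (AKA-018, also sensitive, and GIM-012, MUN-008 and MUN-020, labelled resistant), which are used here for comparison only.

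Inbred strains that share a phenotype can still differ at many loci, through changes in regulatory sequence, lost or duplicated genes, or differences in how much of the body each tissue makes up. Gene families that meet the environment, such as the detoxification enzymes, the digestive peptidases, the immune effectors and the chemosensory receptors, are known in flies for many copies and for frequent gain and loss between genotypes. In RNA of whole flies, fewer cells of a type and less RNA per cell cannot be told apart.

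The number of reads counted in genes was 39722829, 42567920 and 33909229 in the COR-018 libraries and 26185356, 27872235 and 30735696 in the JUT-008 libraries. Every COR-018 library was thus deeper than every JUT-008 library, and depth and strain cannot be told apart for genes with few counts. Levels are given as CPM, TMM-normalized counts per 1000000 counts of a library, which does not divide by gene length, so they compare libraries and not genes. Transcripts of male tissues were present in 3 of the 6 libraries although the flies were labelled female. The summed level of 16 male accessory gland genes was 0.205, 0.0905 and 137.0 CPM in COR-018 (replicates 1, 2 and 4) and 157.1, 73.0 and 0.0937 CPM in JUT-008 (replicates 1, 2 and 3). The 41 testis genes summed to 158, 164 and 422 CPM in COR-018 and 573, 288 and 167 CPM in JUT-008, with the same libraries high, and the 71 Y-linked genes to at most 0.430 CPM in the 3 low libraries and 5.08 to 7.61 CPM in the others. Most of the testis sum in the low libraries came from *Mst85C*, *f-cup* and *m-cup*. These had similar levels in all 6 libraries (36.1 to 40.5, 42.9 to 51.0 and 56.7 to 63.5 CPM). In a principal component analysis the first component (61.7% of the variance) separated COR-018 replicate 4 and JUT-008 replicates 1 and 2 from the rest, and the second (30.8%) separated the strains. Genes of the male lists were therefore counted apart, and fits were also made within the libraries with and without these transcripts. Each of these restricted fits leaves 1 strain with 1 library, so list medians are given from them in place of counts.

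The strains differed widely, mostly through higher levels in COR-018. Of 11221 genes tested with edgeR's quasi-likelihood test, 2720 (24.2%) were differentially expressed genes (DEGs), defined by a fold change over 1.5 at a *p*-value under 0.05 after Benjamini-Hochberg adjustment. In 6421 genes (57.2%) the levels of the strains did not overlap. COR-018 had the higher level in 2007 (17.9% of the genes tested) and JUT-008 in 713 (6.35%), so that 73.8% of the DEGs were higher in COR-018. The differences were also larger in that direction, with a median log2 difference of 1.15 in DEGs higher in COR-018 and -0.76 in DEGs higher in JUT-008, whereas the median over all genes tested was -0.03. Among the DEGs 123 in COR-018 and 44 in the other strain had a log2 difference over 3. Without the fold-change threshold 4944 genes passed, 50.2% of them higher in COR-018, so the excess lay in the size of the differences. None of the 47 genes of the male lists that were tested was a DEG, and 540 genes whose level followed the male sum within groups (*r* over 0.9) held 6 DEGs. The spread of these genes within each strain made a call unlikely, so these numbers do not show whether male material affected the other genes. With the level of the male accessory gland transcripts as a covariate 3147 genes were DEGs, and 2655 of the 2720 DEGs were called again. The plot of difference against level shows the calls in both directions over the range of expression.

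**Figure D1:**
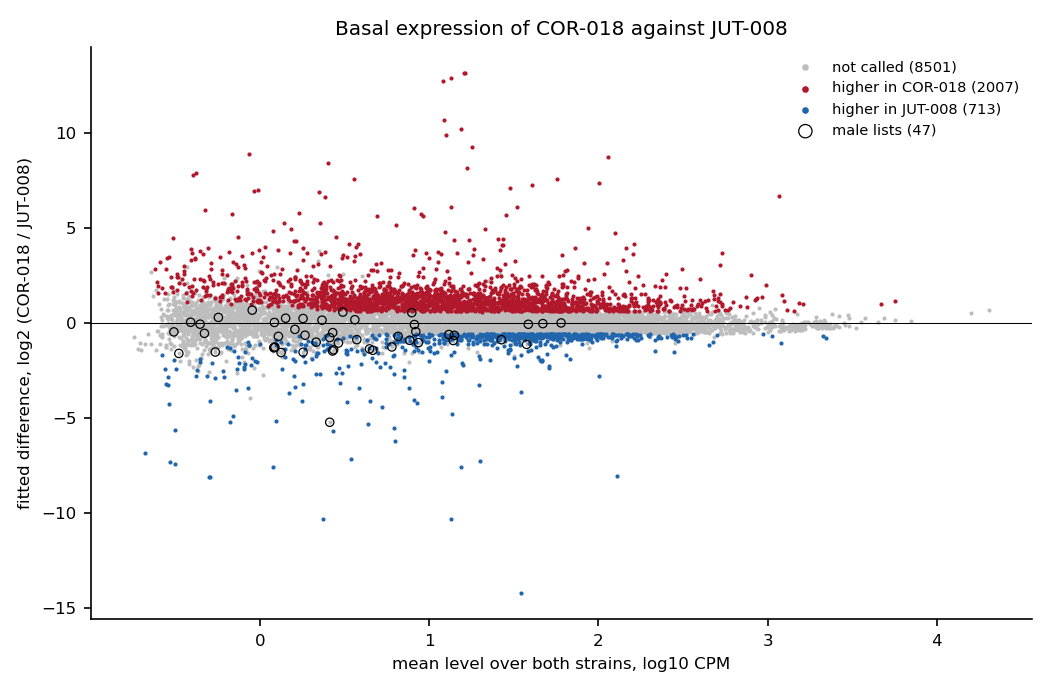
Fitted strain difference in control libraries (log2 of COR-018 over JUT-008, vertical axis) against the mean level of each of 11221 genes (log10 CPM, horizontal axis). Red points are the 2007 DEGs higher in COR-018, blue points the 713 higher in JUT-008, grey points genes not called, and open circles the 47 male-list genes, none of which was called; most of the points beyond a log2 difference of 3 lie on the COR-018 side.

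The strongest contrast was in genes read in 1 of these strains and almost not at all in the other. With at least 100 counts in every library of 1 strain and at most 3 in every library of the other, 12 genes were present in COR-018 only and 3 in JUT-008 only; when all libraries were scaled to the depth of the shallowest, 10 and 3 genes met the rule. Of the COR-018 genes, 4 had no count in any JUT-008 library. *mthl8* (3L:22428-26308), a G protein-coupled receptor of the methuselah family, had 33.0, 31.1 and 33.9 CPM in COR-018. Against the floor of 3 counts per library this is at least 293-fold higher than in JUT-008. *CG31683* had 33.3, 30.0 and 33.1 CPM (at least 288-fold higher). *CG44142* had 26.5, 18.9 and 35.2 CPM and the serine peptidase gene *Ser12* 22.3, 15.0 and 34.9 CPM, at least 241-fold and 216-fold higher. These genes were also at 0 counts in all JUT-008 copper libraries, except *CG31683* with at most 2 counts, so their absence held in 6 JUT-008 libraries.

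The other COR-018 genes of this kind had a few counts in JUT-008, and their ratio is given with an exact 95% interval that covers counting error only. *CG6277*, a predicted lipase, had 32.1, 39.3 and 20.9 CPM in COR-018 and 2 counts over the JUT-008 libraries, a ratio of 1389 (384 to 11480). *Cyp303a1* (2L:16294183-16296969), a cytochrome P450 known for its part in forming mechanosensory bristles, had 19.6, 19.5 and 35.9 CPM against 2 counts, a ratio of 1076 (298 to 8887). *CG3397*, a predicted aldo-keto reductase, had 28.4, 18.7 and 26.1 CPM against 1 count. *CG31832*, *AANATL3* (an arylalkylamine N-acetyltransferase-like gene), the lysozyme gene *LysX*, *CG6271* and *CR44383* had means of 2.93 to 7.15 CPM. *CG6271* is also a predicted lipase. In the reverse direction *Cyp12d1-d* (2R:11123658-11125647), a mitochondrial cytochrome P450 known for its induction by xenobiotics, had 70.5, 75.3 and 63.1 CPM in JUT-008 and no count in COR-018, a level at least 811-fold higher in JUT-008. *LysC*, annotated as a pseudogene of the lysozyme family, had 33.4, 32.9 and 14 CPM in JUT-008 against 2 counts in COR-018, and the antisense RNA *asRNA:CR46068* had 5.06, 4.43 and 4.65 CPM against none. *Cyp12d1-d* and *LysC* have near-identical neighbours (*Cyp12d1-p*, *LysD*), and reads that mapped to several places were discarded by the authors, so their counts hold only reads that tell the copies apart. A gene missing from a strain's genome, a gene that is not transcribed and an allele whose reads do not map cannot be told apart in these counts.

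The other 4 strains show which of these patterns belong to 1 strain. *Cyp303a1* was at 0.0329 to 0.411 CPM on average in AKA-018, GIM-012, MUN-008 and MUN-020 control libraries, so that COR-018 stood alone with 25.0 ± 9.46 CPM (SD, n = 3). *CG31832*, with 7.15 ± 1.49 CPM in COR-018, was likewise at 0.288 to 0.719 CPM elsewhere. JUT-008 was the exception for *mthl8* (3.17 to 21.4 CPM in the other strains), *CG31683* (6.84 to 13.5 CPM), *CG6277* (36.5 to 92.3 CPM), *AANATL3* and *CR44383*. *CG44142* and *Ser12* were absent from MUN-008 as well, with no count in any of its control libraries. *Cyp12d1-d* varied among strains, with 6.55 CPM on average in AKA-018, 0.0168 CPM in GIM-012, 11.8 CPM in MUN-008 and 26 CPM in MUN-020, and *asRNA:CR46068* had counts in JUT-008 only, apart from 0.00895 CPM in GIM-012.

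**Figure D2:**
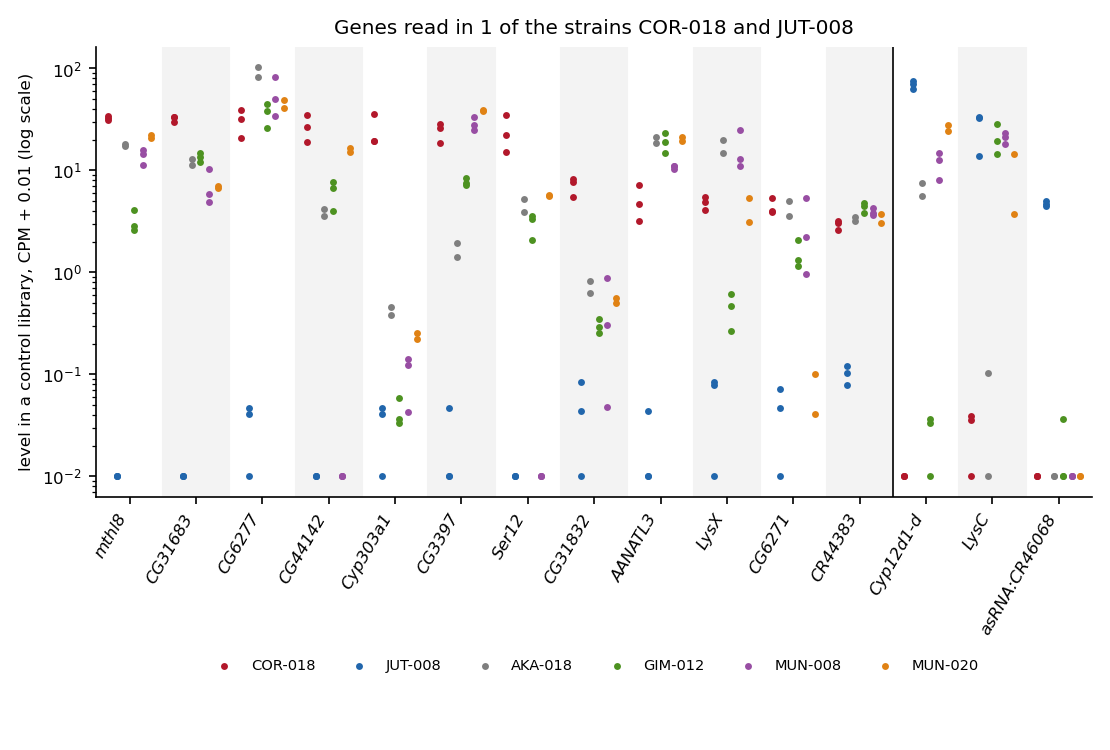
Level of the 15 genes read in 1 of COR-018 and JUT-008 in each of the 16 control libraries (CPM plus 0.01, logarithmic axis). Each point is 1 library, coloured by strain, and the vertical line separates the 12 genes present in COR-018 from the 3 present in JUT-008; *Cyp303a1* is high in COR-018 only and *asRNA:CR46068* in JUT-008 only.

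Among genes read in both strains the differences were as large as in *CG8329* and *sordd2*. *CG8329* had 244, 191 and 249 CPM in COR-018 and 0.818, 0.477 and 0.375 CPM in JUT-008 (log2 difference 8.69 ± 0.26 SE, adjusted *p*-value = 8.4e-05, edgeR). *sordd2* had 36.1, 35.3 and 36.4 CPM against at most 0.136 CPM, a log2 difference of 9.22. *CG2233* was the most abundant of this group, with 2915, 2008 and 2055 CPM in COR-018 and 23.7, 24.2 and 21.3 CPM in JUT-008 (log2 difference 6.65), and its mean in the other strains was 1360 to 1989 CPM. The alkaline phosphatase gene *Alp8* varied within COR-018 (23.8, 2.78 and 73.3 CPM) and was at most 0.298 CPM in JUT-008. Its log2 difference of 8.14 was 6.78 without COR-018 replicate 4 and 9.86 without JUT-008 replicate 1. Among the DEGs with the lowest *p*-values were also *CG4570* (log2 difference 6.08) and the long noncoding RNA *lncRNA:dntRL* (5.62).

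Of the genes higher in JUT-008, *Cyp12d1-d*, described above, had the largest difference. *LysD*, the lysozyme gene beside *LysC*, had 274, 322 and 169 CPM in JUT-008 and 1.13, 1.02 and 0.658 CPM in COR-018 (log2 difference -8.08 ± 0.36 SE). As for *LysC*, the counts of *LysD* hold only reads that tell the near-identical copies apart. *CG15820* had 29.6, 30.3 and 31.5 CPM in JUT-008 and counts in COR-018 replicate 2 only (0.430 CPM). *Tsp39D*, a tetraspanin, had 34.3, 37.4 and 47.8 CPM against at most 0.498 CPM (log2 difference -7.26, and -8.30 without COR-018 replicate 2). *Gr98b*, a gustatory receptor, had 10.2, 15.4 and 11.4 CPM against 0.179, 0.181 and 0.114 CPM (log2 difference -6.25). *CG34334* had 11.6, 12.5 and 12.2 CPM in JUT-008 and at most 1.06 CPM on average in any other strain. *moon*, which initiates transcription of piRNA clusters in the germline, had 24.6, 28.3 and 25.6 CPM against 0.870, 1.36 and 0.544 CPM (log2 difference -4.81), and *CG15362* a log2 difference of -4.21. *CG7565* (-1.97) and *Sdhaf3* (-1.62), an assembly factor of succinate dehydrogenase, differed less but were among the DEGs with the lowest *p*-values in this direction. *dtr* (-4.05) had 0.102, 0.136 and 2.55 CPM in COR-018, and its call was lost in every fit without 1 library except that without COR-018 replicate 4, the high one.

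Many detoxification genes were DEGs, and most of these were higher in COR-018, as over all genes. Cytochrome P450s oxidize xenobiotics, hormones and lipids, and glutathione S-transferases (GSTs) and UDP-glycosyltransferases (UGTs) conjugate the products. Of 81 P450 genes tested, 31 were higher in COR-018 and 10 in JUT-008, with a median log2 difference of 0.58. Over all genes tested, 17.9% were higher in COR-018 and 6.35% in JUT-008 with a median of -0.03, and the counts of every list are to be read against these shares. The most changed in COR-018 after *Cyp303a1* was *Cyp6a8* (64.0, 31.0 and 61.6 CPM against 2.72, 2.49 and 2.25 CPM), with a log2 difference of 4.39 ± 0.33 SE. *Cyp6g1*, an enzyme known for insecticide resistance, was the most abundant P450 gene named here, with 1860, 1542 and 1712 CPM against 810, 894 and 644 CPM (log2 difference 1.12). In JUT-008 *Cyp6a22* followed *Cyp12d1-d*, with 61.0, 61.7 and 70.8 CPM against 4.50, 7.15 and 3.98 CPM (log2 difference -3.63). The P450 median was 0.865 within the 3 libraries without male transcripts and 0.39 within the other 3 libraries.

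Of 35 GST genes, 7 were higher in COR-018 and 3 in JUT-008, near the shares of all genes. Their median log2 difference was 0.20, with 0.37 in the libraries without male transcripts and 0.08 in those with them. *GstE1* stood apart with 114, 101 and 121 CPM in COR-018 and 11, 10.4 and 7.31 CPM in JUT-008 (log2 difference 3.55 ± 0.18 SE), and *GstZ1* was higher in JUT-008 by a nearly constant amount (12.6, 12.3 and 11.5 against 24.5, 24.4 and 24.0 CPM). Of 33 UGT genes, 11 were higher in COR-018 and 3 in JUT-008 (median 0.75). *Ugt35E2* had a log2 difference of 2.18 and *Ugt36D1* of -1.07, with 21.7, 19.2 and 21.4 CPM against 42.1, 47.8 and 41.1 CPM. The UGT median was 0.86 within the libraries without male transcripts and 0.10 within those with them.

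Of the stress and immune lists the Turandot genes had the highest median log2 difference (3.76). The Turandot genes encode secreted peptides that are released into the haemolymph under stress, and 3 of the 4 tested were DEGs. *TotC* had 102, 122 and 116 CPM in COR-018 and 0.632, 0.580 and 0.562 CPM in JUT-008, the lowest *p*-value of the comparison (log2 difference 7.57 ± 0.12 SE, adjusted *p*-value = 5.9e-06, edgeR). The other strains had 7.83 to 25.2 CPM of *TotC* on average, between these strains. *TotM* had 109, 104 and 194 CPM against 13.5, 6.07 and 7.56 CPM (log2 difference 3.91). Of 26 antimicrobial peptide genes 6 were higher in COR-018 and none in JUT-008 (median 0.86), a count near the 17.9% of all genes. *BomT3*, of the Bomanin family, had 166, 149 and 158 CPM against 51.1, 55.7 and 46.3 CPM (log2 difference 1.62 ± 0.09 SE). The antimicrobial median differed with the libraries used, at 0.16 in those without male transcripts and 1.32 in those with them. Of 33 immune recognition genes 12 were higher in COR-018 and 3 in JUT-008. *NimC2*, a phagocytosis receptor, had 5.29, 2.04 and 3.20 CPM against 0.409, 0.273 and 0.156 CPM, and the lectin gene *lectin-24A* 0.588, 0.859 and 1.06 CPM against 0 in every library. *lectin-28C* was higher in JUT-008 (log2 difference -1.75). Of 14 inducible heat shock genes 7 were higher in COR-018 and 1 in JUT-008, with a median of 1.02. *Hsp68* had 78.1, 42.5 and 35.6 CPM against 11.9, 7.61 and 7.96 CPM (log2 difference 2.51). The gene higher in JUT-008 was *Hsp26*, a small heat shock protein (323, 307 and 316 against 617, 609 and 664 CPM).

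Digestive enzymes moved with the carbohydrate enzymes in front. Of 14 genes of carbohydrate digestion, the maltases, amylases and *tobi*, 8 were higher in COR-018 and 1 in JUT-008 (median 1.50). That median was 2.19 in the libraries without male transcripts and 0.73 in those with them. *Mal-A8* had 248, 179 and 79.9 CPM in COR-018 and 4.98, 8.63 and 2.22 CPM in JUT-008 (log2 difference 5.00). *tobi*, a glucosidase gene regulated by diet and insulin, had 1586, 1071 and 351 CPM against 73.0, 97.0 and 64.2 CPM (3.68). COR-018 replicate 4 was the lowest in both, still above every JUT-008 library. *Amy-p*, an amylase with the near-identical copy *Amy-d*, was higher in JUT-008 (147, 116 and 77.5 against 379, 380 and 194 CPM). Its log2 difference of -1.49 was only -0.56 within the libraries without male transcripts. Of 29 trypsin- and chymotrypsin-like peptidase genes of the gut, among them the Jonah genes, 7 were higher in COR-018 and 4 in JUT-008, against 17.9% and 6.35% of all genes. Their median was 0.47, with 0.91 in the libraries without male transcripts and 0.19 in those with them. *Jon65Aii* was nearly absent from JUT-008 (79.6, 75.4 and 85.2 against 0.298, 0.750 and 0.531 CPM) and *Ser8* was higher there (-1.68). The neighbour of *Jon65Aii*, *Jon65Ai*, differed in the other direction (20.4, 12.6 and 39.6 against 90.1, 72.8 and 60.3 CPM), a call lost without COR-018 replicate 1, JUT-008 replicate 1 or JUT-008 replicate 2.

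Of the markers of somatic tissues that were DEGs, all were higher in COR-018, and of those of the ovarian germline all were higher in JUT-008, although many markers did not pass the test. Of 13 muscle genes 7 were higher in COR-018 and none in JUT-008 (median 0.92), against 17.9% and 6.35% of all genes, and *bt*, a giant protein of the sarcomere, had 803, 726 and 585 CPM against 227, 269 and 274 CPM (log2 difference 1.45 ± 0.14 SE). Of 15 phototransduction genes 11 were higher in COR-018 (median 0.87), with *trpl*, a channel of the photoreceptor, at 108, 115 and 85.8 against 35.3, 44.6 and 35.7 CPM. Of 10 fat body and lipid genes 7 were higher in COR-018 (median 0.86), and *apolpp*, the precursor of the haemolymph lipid carrier, had 2340, 1301 and 1723 CPM against 576, 676 and 671 CPM. Malpighian tubule markers (3 of 4) and haemocyte markers (3 of 7) had medians of 1.01 and 0.82, with *Irk3*, a potassium channel of the tubule, at 55.3, 46.4 and 55.7 against 27.3, 30.5 and 20.2 CPM. No gene of these 5 lists was a DEG higher in JUT-008 with all 6 libraries, although the differences of the muscle genes ran from -0.96 to 1.45. The haemocyte median varied most with the libraries, at 1.53 in those without male transcripts and 0.36 in those with them. Of the haemocyte DEGs, *eater* lost its call in every fit without 1 library except that without COR-018 replicate 4. *PPO2* lost its call without COR-018 replicate 1, JUT-008 replicate 2 or JUT-008 replicate 3.

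Of 9 ovarian germline genes 5 were higher in JUT-008 and none in COR-018, with a median of -0.60. *osk*, the determinant of germ plasm, had 663, 911 and 755 CPM in COR-018 and 1734, 1206 and 1954 CPM in JUT-008 (log2 difference -1.08 ± 0.20 SE). DNA replication genes (1 of 14 higher in JUT-008, *Orc6*, median -0.40), piRNA pathway genes (1 of 26 higher in COR-018, *qin*, median -0.21), cytosolic ribosomal protein genes (1 of 82, median -0.17) and nuclear genes of oxidative phosphorylation (0 of 70, median -0.22) held few DEGs and had medians below 0. In the libraries without male transcripts the medians of the ribosomal and oxidative phosphorylation lists were 0.02 and -0.0009. The piRNA list, whose differences ran from -0.57 to 0.83, does not hold *moon*, named above as a DEG higher in JUT-008. The eggshell genes (2 of 20 higher in JUT-008, median -0.51) varied between libraries of 1 strain. Their sum was 2875, 2004 and 6241 CPM in COR-018 and 5160, 4136 and 4015 CPM in JUT-008. The median of the eggshell genes was -1.15 within the libraries without male transcripts and 0.28 within the others. Of the 3 yolk protein genes *Yp1* was higher in COR-018 (9012, 5164 and 9139 against 4315, 3367 and 2910 CPM), a call lost without COR-018 replicate 1 or JUT-008 replicate 2.

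Summed per library, the muscle list had 5469, 5528 and 7131 CPM in COR-018 and 3126, 3195 and 2675 CPM in JUT-008, and the fat body list 6466, 4606 and 5029 against 2872, 3068 and 3053 CPM. The germline list had 1739, 2190 and 1915 against 3133, 2426 and 3635 CPM. The strains did not overlap in any of these sums, nor in those of the phototransduction and Malpighian tubule lists. Of all single genes tested, 57.2% did not overlap either. The haemocyte sums did overlap, with 314, 291 and 281 CPM in COR-018 and 257, 287 and 284 CPM in JUT-008. For muscle and fat body JUT-008 had the lowest mean of the 6 strains (2998 CPM for each list), whereas for the germline list GIM-012 was higher (3580 ± 674 CPM, SD, n = 3, against 3065 ± 608 CPM) and overlapped with it. Body composition was not measured, and its part in the excess of DEGs higher in COR-018 was not tested.

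**Figure D3:**
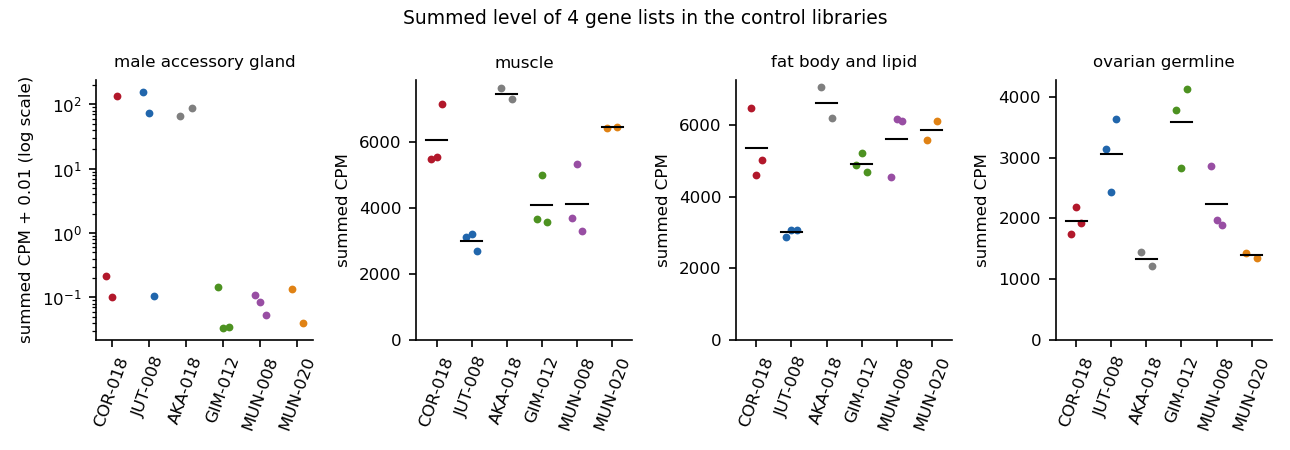
Summed level of 4 gene lists in the 16 control libraries (CPM, with 0.01 added and a logarithmic axis for the male accessory gland list). Each point is a library, grouped by strain, and bars mark strain means; the male list is at 73.0 to 157.1 CPM in 3 of the 6 COR-018 and JUT-008 libraries, and the muscle and fat body lists are lowest in JUT-008.

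**Figure D4:**
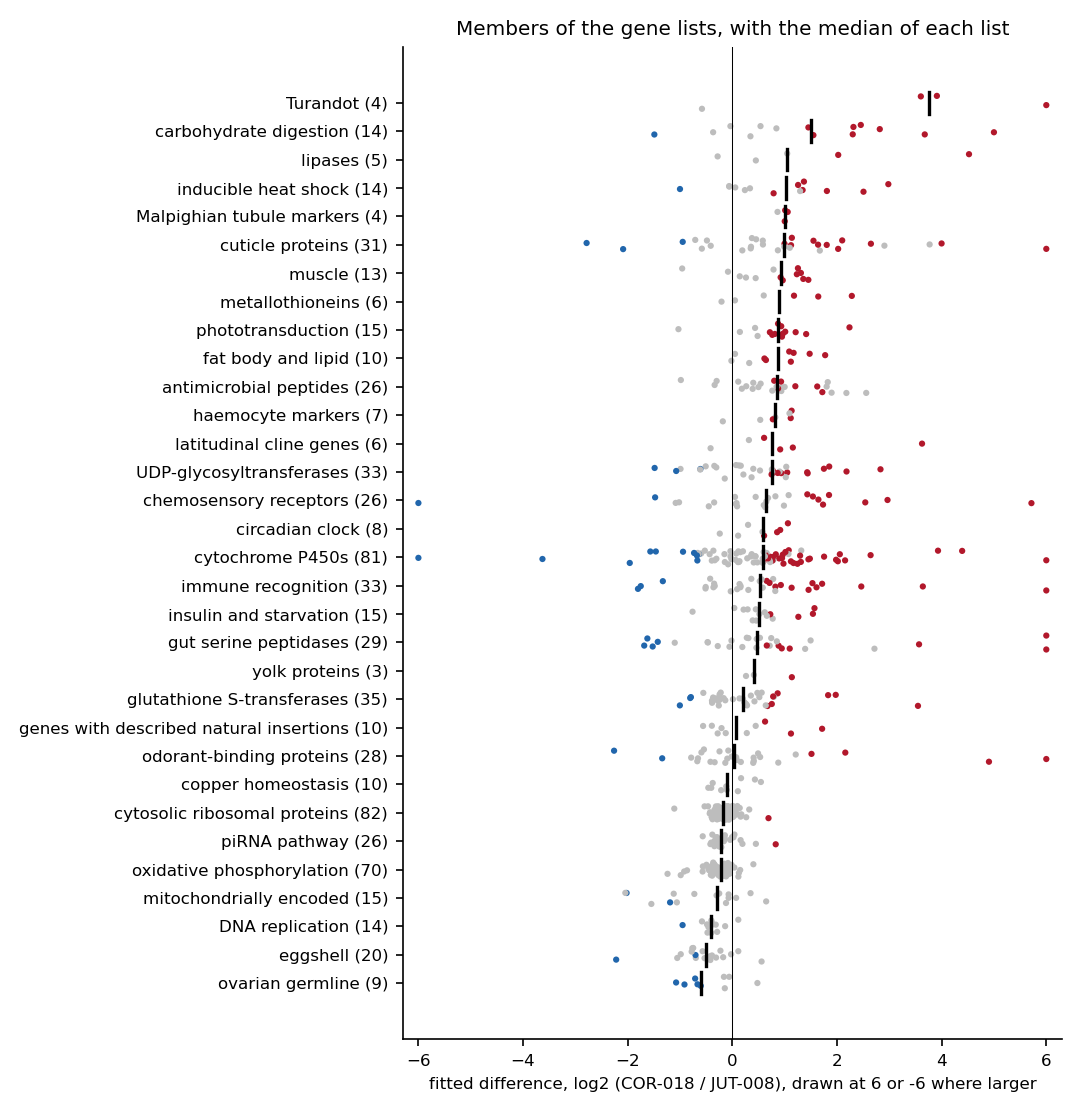
Fitted strain difference of every tested member of 32 gene lists (log2 of COR-018 over JUT-008; values beyond 6 are drawn at 6). Red and blue points are DEGs higher in COR-018 and in JUT-008, grey points were not called, black bars are list medians and the number of genes tested is in parentheses; medians run from 3.76 for the 4 Turandot genes to -0.60 for the ovarian germline genes.

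Of the genes that handle copper itself, some metallothioneins were DEGs and no gene of copper transport was. Metallothioneins are small cysteine-rich proteins that bind copper and other metals and are induced by them, and 3 of the 6 were higher in COR-018 without added copper. *MtnA* had 1100, 913 and 1504 CPM against 612, 558 and 381 CPM (log2 difference 1.18 ± 0.25 SE, adjusted *p*-value = 0.011, edgeR). *MtnC* had 47.1, 58.0 and 68.9 CPM against 14.3, 14.6 and 6.84 CPM (log2 difference 2.28 ± 0.31 SE), and *MtnD* 5.35, 5.65 and 9.84 CPM against 2.45, 2.15 and 2.06 CPM (1.64). The strains overlapped for *MtnB* (0.05 ± 0.59 SE), *MtnE* (0.60 ± 0.32 SE) and *MtnF* (-0.21 ± 0.79 SE), of which *MtnF* was below 3 CPM in every library. None of 10 copper homeostasis genes was a DEG. *Ctr1A*, the copper importer, had an adjusted *p*-value of 0.0096 (edgeR) at a log2 difference of 0.55, under the fold threshold, and passed it without JUT-008 replicate 3 (0.64). *Scox* (-0.46), *Cox17* (-0.40) and *Atox1* (-0.38), which carry copper within the cell or to the mitochondrion, also had adjusted *p*-values below 0.05 under that threshold, with the higher level in JUT-008. The differences of the copper exporter *ATP7* (0.17 ± 0.06 SE), the metal-responsive factor *MTF-1* (0.11 ± 0.10 SE), *Mvl* (-0.21 ± 0.09 SE), *Sod1* (-0.10 ± 0.10 SE), *Ccs* (-0.12 ± 0.08 SE) and *Ctr1B* (0.43 ± 0.24 SE) did not pass the test.

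Genes of chemical sensing and of the cuticle were DEGs in both directions, whereas all clock genes that were DEGs were higher in COR-018. The odorant-binding protein genes *Obp83a* (29.1, 30.4 and 20.0 against 0.521, 0.512 and 0.125 CPM) and *Obp57a* (12.8, 9.09 and 12.4 against 51.2, 57.8 and 55.0 CPM) differed in opposite directions. Of 28 such genes 4 were higher in COR-018 and 2 in JUT-008, with a median of 0.03, near the 17.9% and 6.35% of all genes. The median changed sign with the libraries, at 0.72 in those without male transcripts and -0.16 in those with them. Of 26 chemosensory receptor genes 8 and 2 were called. Their median was 0.64, with 0.99 in the libraries without male transcripts and 0.53 in those with them. At the ends were *Ir41a* (1.36, 1.06 and 1.63 CPM against counts in JUT-008 replicate 3 only, at 0.0625 CPM) and *Gr98b*. *Clk* (14.7, 12.5 and 12.8 against 5.88, 6.24 and 6.97 CPM) and *tim* (463, 406 and 355 against 208, 231 and 208 CPM) led the 4 of 8 clock genes that were higher in COR-018. No sampling hour was used here, and its part in these differences was not tested. The insulin-like peptide gene *Ilp2* had 8.88, 9.79 and 9.16 CPM against 3.27, 3.10 and 2.97 CPM (log2 difference 1.57 ± 0.13 SE), 1 of 4 DEGs among 15 genes of insulin signalling and starvation. Alcohol dehydrogenase, *Adh*, whose alleles are known for clines with latitude, was low in these counts, in which reads that it shares with the overlapping *Adhr* were discarded, and was lower in JUT-008 (4.43, 4.07 and 4.23 against 0.595, 0.307 and 0.125 CPM). *Jheh3*, a juvenile hormone epoxide hydrolase beside a described transposon insertion, had 72.4, 53.9 and 68.2 CPM against 20.8, 24.1 and 14.3 CPM. Of 31 cuticle protein genes 11 and 3 were called, with *Cpr72Ec* (log2 difference 4.0) and *Cpr66D* (-2.09) among them. Of the 15 mitochondrially encoded transcripts tested 2 were higher in JUT-008, the overlapping *mt:ATPase8* (-2.02) and *mt:ATPase6* (-1.19). Reads that these genes share were discarded, as for *Adh*, and the 2 calls may not be independent. The median of the 15 was 0.33 in the libraries without male transcripts and -0.42 in those with them. The *mt:ATPase6* call was lost without any 1 of COR-018 replicates 1, 2 and 4 or JUT-008 replicate 2.

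Chromosome 4, the small chromosome that is heterochromatic for most of its length, stood out among the chromosome arms. Of its 93 genes tested 34 (36.6%) were higher in COR-018 and 1 in JUT-008, against 14.8% to 19.2% higher in COR-018 on the other arms. The difference was positive in 77 of the 93 genes (82.8%), with a median log2 difference of 0.46, and the medians of the other arms ran from -0.11 (X) to -0.02. The median was 0.20 in the libraries without male transcripts and 0.57 in those with them, and 0.43 to 0.47 with library size alone, RLE or DESeq2 as the scaling. In the copper libraries 27 of 93 genes (29.0%) were higher in COR-018, against 14.6% to 19.6% on the other arms, and 3 in JUT-008 (median 0.25). In 32 of the 34 DEGs higher in COR-018 JUT-008 had the lowest mean of the 6 strains, as it had in 85.5% of such DEGs over all chromosomes. *apolpp* and *bt*, the muscle and lipid genes named above, are both on this chromosome.

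DEGs lay next to DEGs of the same direction more often than the share of all genes. The next tested gene on the arm was also higher in COR-018 for 28.0% of the DEGs higher in COR-018, against 18.1% over all genes, and was also higher in JUT-008 for 11.8% of those higher in JUT-008, against 6.41%. There were 18 runs of at least 5 neighbouring DEGs of 1 direction, all 18 higher in COR-018. The longest spans 8 genes at 3L:5933036-6053215 and ends in *Jon65Aiv*, *Jon65Aiii* and *Jon65Aii*, next to *Jon65Ai* of the opposite direction. The run at 2R:8465158-8567202 holds *Mal-A6*, *Mal-A7* and *Mal-A8*, and the run at 4:1057365-1123357 holds *apolpp*. These runs were chosen after their values were seen. Members of a gene family often lie side by side and share sequence, so neighbours are not independent.

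The copper libraries hold the same strain difference in flies that the control comparison did not use, and most of the calls recurred there. With copper 2876 of 11289 genes tested (25.5%) were DEGs between the strains, 72.1% of them higher in COR-018. Of the 2693 control DEGs tested there, 2638 (98.0%) had the same sign, against 85.6% of all genes, and 1988 (73.8%) were DEGs of the same direction, against 6 of the opposite direction. The share called again was 78.8% for DEGs higher in COR-018 and 59.9% for those higher in JUT-008. Of 160 control DEGs with a log2 difference over 3 in either direction 155 were called again and none was reversed among the calls. The interaction of strain and treatment was significant in 59 of 11708 genes (0.504%, adjusted *p*-value below 0.05, edgeR), and in 329 with DESeq2. All 6 copper libraries come from flies that survived exposure, since flies of these strains that had died were removed by the authors. Eggshell genes showed how far the strains could part with copper. All 20 were higher in JUT-008 there (median log2 difference -5.50). Their sums were 20.9, 14.3 and 30.8 CPM in COR-018 and 1082, 1038 and 1264 CPM in JUT-008. Other lists also changed balance. Of the gut peptidase genes, 6 were higher in COR-018 and 9 in JUT-008 with copper (median -0.36). These numbers were 5 and 9 for odorant-binding proteins (-0.37), 7 and 6 for cuticle proteins (-0.07) and 5 and 4 for carbohydrate digestion (0.52). The muscle median fell to 0.24. The phototransduction (0.86) and germline (-0.50) medians stayed near those in control.

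**Figure D5:**
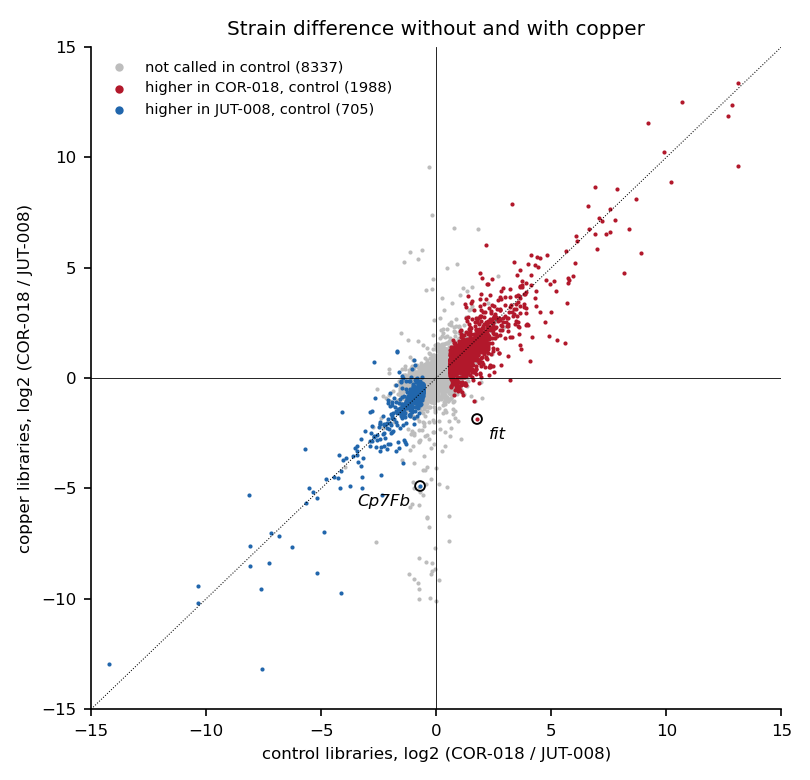
Strain difference in copper libraries (vertical) against control libraries (horizontal), both as log2 of COR-018 over JUT-008, for 11030 genes tested in both. Red and blue points are control DEGs higher in COR-018 (1988) or JUT-008 (705), the dotted line marks equal differences, and the open circles mark *fit* and *Cp7Fb*; 98.0% of the control DEGs lie in the quadrants of equal sign.

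Set beside the other strains, JUT-008 was more often at the end of the range than COR-018, although DEGs between them were bound to hold either strain at an end more often than other genes. Among the 2007 DEGs higher in COR-018, JUT-008 had the lowest mean of the 6 strains in 1715 (85.5%, against 60.8% of all genes with a positive difference), and COR-018 had the highest in 728 (36.3%, against 24.6%). Among the 713 DEGs higher in JUT-008, JUT-008 was the highest in 516 (72.4%, against 44.0% of all genes with a negative difference) and COR-018 the lowest in 294 (41.2%, against 22.1%). All 4 other strains were nearer to COR-018 in 769 of the DEGs higher in COR-018 (38.3%, against 32.5% of all genes with a positive difference) and nearer to JUT-008 in 79 (3.94%, against 5.99%). For DEGs higher in JUT-008 these numbers were 189 (26.5%, against 18.2% of all genes with a negative difference) and 103 (14.4%, against 8.95%). Of the pairs of strains with 3 control libraries each, JUT-008 and MUN-008 had the largest share of DEGs (27.7%), COR-018 and JUT-008 followed (24.2%), and COR-018 and MUN-008, a sensitive and a resistant strain, had the smallest (8.12%). These pairs share libraries, and the shares were not tested against each other. The fitted variation between replicates (common biological coefficient of variation) was 0.32 for COR-018 and JUT-008 and 0.145 to 0.184 for the other pairs. The share of DEGs depends on this variation, so the shares do not rank the sizes of the strain differences.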

How the data were processed

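Raw counts per gene were used as deposited by the authors, who per their processing notes used Trim Galore 0.5.0, cutadapt 1.18, STAR 2.6 (dm6) and featureCounts 1.6.2 by strand. Reads with several mapping positions or within several genes were discarded. The table holds 16495 genes, of which 16198 were named and placed with the Ensembl annotation of BDGP6.54, whose coordinates are those of dm6. Its label refers to a removal of males that the paper does not describe.

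The 6 control libraries of COR-018 and JUT-008 were grouped by their labels and tested with edgeR 4.0.16 (R 4.3.3; TMM, filterByExpr, glmQLFit and glmQLFTest with strain as the only term), with *p*-values of the 11221 genes adjusted after Benjamini-Hochberg. CPM levels use TMM factors of all 34 libraries. The 6 copper libraries were fitted alone, and the interaction in all 12. Alternatives were DESeq2 1.42.0, other scalings, filters and thresholds, a replicate term, all 16 control libraries and leaving out each library. Libraries of a strain differed beyond counting error (chi-squared per degree of freedom 23.9 to 73.8), so replicates set the precision. On simulated data for this comparison, 79% of genes changed by 1 on the log2 scale and 98% of those changed by 2 were called, with 11 false calls among 10926 genes. The changed genes were drawn above a minimum level and each gene varied independently. These numbers therefore do not cover genes at low levels or variation shared by many genes, such as that of male transcripts.

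The genes and lists were chosen with earlier results of these data known. Named genes are the 10 DEGs with the largest difference in each direction at 10 CPM or more, the 5 with the lowest *p*-value in each direction, genes read in 1 strain only, the 2 most changed DEGs of each list and direction, all without overlap between strains, and all metallothionein and copper homeostasis genes.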

Additional observations from a re-analysis of the deposited data

Results flagged for a closer look

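*Cp7Fb*, a chorion gene of the eggshell, and *fit*, a gene of the female fat body, were DEGs in control libraries whose strain difference was not the same with copper, by edgeR's test of the interaction. The log2 difference of *Cp7Fb* was -0.70 in control and -4.89 in copper libraries, an interaction of -4.20 (adjusted *p*-value = 0.038, edgeR). Its copper libraries had 0.485, 0.758 and 0.689 CPM in COR-018 and 7.78, 36.7 and 14.8 CPM in JUT-008. The control call of *Cp7Fb* was lost in 5 of the 6 fits that leave out 1 library. *fit* was higher in COR-018 without copper (89.5, 44.9 and 118 against 34.4, 23.5 and 16 CPM) and higher in JUT-008 with it (3.65, 3.56 and 3.27 against 15.7, 10.9 and 11.9 CPM), an interaction of -3.64 (adjusted *p*-value = 0.016, edgeR). Its control call was lost without COR-018 replicate 1 and without JUT-008 replicate 2.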

How the results depend on the processing

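The total of 2720 DEGs stayed between 2678 and 3440 with DESeq2 (2964, of which 2681 were shared), RLE (2714), library size alone (2756), both filters, all 16 control libraries (3123) and the replicate term. Leaving out 1 library gave 2098 (without COR-018 replicate 1) to 2751 DEGs, 1574 to 1925 higher in COR-018 and 524 to 826 higher in JUT-008, and 1670 to 1910 called again with copper. Outside the male lists, without the fold threshold 4943 genes passed (4944 in all), 2463 of them (2464 in all) higher in JUT-008. At a log2 difference over 1.5 there were 701, with 572 higher in COR-018 and 129 in JUT-008, of which 435 were called again with copper. The share of DEGs higher in COR-018 was 70.0% to 76.0% except at these thresholds (50.2% and 81.6%) and with the replicate block (58.9%). With the block 1414 genes (1376 outside the male lists) were higher in JUT-008. Libraries of equal number did not deviate together (*r* = -0.73 and -0.64). These correlations followed the male transcripts, with *r* = 0.85 for COR-018 replicate 4 and JUT-008 replicate 1, both high in them. Whether equal numbers mark a shared batch therefore cannot be told. The interaction was significant in 59 genes with edgeR and in 329 with DESeq2. Fits restricted to libraries with or without male transcripts and with their level as a covariate were added after the data were seen, and each restricted fit leaves 1 strain with 1 library, whose spread is taken from the other. Of 111 named genes, *MTF-1*, *MtnB*, *MtnF* and *Sod1*, which were no DEGs, changed sign under some alternatives and the others under none. Genes with few counts are limited by the lower depth of JUT-008.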
